A study of Mus musculus with 15 samples.

Results

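The genes described here encode the 4 ERBB receptors, Egfr, Erbb2, Erbb3 and Erbb4, and 4 other proteins, Lrig1, Lrig2, Lrig3 and Errfi1. Lrig1 and Errfi1 are known to restrain the receptors, and Lrig2 and Lrig3, relatives of Lrig1, were grouped with them as brakes. The 8 genes were examined in a list of H3K27ac peaks from a mouse tumor. Each peak that overlapped the RefSeq span of a gene, or 50 kb either side of it, by at least 1 bp was assigned to that gene. By this rule 376 of the 122375 peaks in the list belonged to the 8 genes, which are 8 of 21000 protein-coding genes. Lrig1 was chosen by the density of peaks at its locus in this list, and the other genes were chosen with their peaks known, so peak numbers and densities are descriptions of the choice. A peak within 2 kb of a start site of the gene was a promoter peak, any other peak over the gene was a gene body peak, and the rest were flank peaks.

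The study modeled fusion-positive rhabdomyosarcoma (FP-RMS), a soft tissue tumor with features of skeletal muscle in which the fusion of PAX3 with FOXO1 (P3F) is the driver. The library was made from a tumor of the MCP model, with the alleles Myf6-Cre and Cdkn2a(Flox/Flox), a knock-in labeled Pax(3P3F/P3F), and R26-tdTom, in which Cre made from the Myf6 locus, active in myogenic cells, turns on P3F, deletes Cdkn2a and marks the cells with tdTomato. All libraries of this model carry these alleles, the age of the mouse is not given in the sources used here, and the tumors were dissociated and live cells were sorted. CUT&RUN cuts out the DNA beside an antibody, here one against histone H3 acetylated at lysine 27 (H3K27ac), and libraries made with IgG gave the background. The peak list was that of the library MCP H3K27ac replicate 5, one of 6 MCP H3K27ac libraries among 15 libraries, so that no value below has a replicate and no test was made.

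ERBB receptors are tyrosine kinases of the cell surface. Growth factors of the EGF family bind Egfr, neuregulins bind Erbb3 and Erbb4, and Erbb2, which has no known ligand, acts as the partner of the others, while Erbb3 has little kinase activity of its own. Lrig1 is a transmembrane protein known to promote the ubiquitination and removal of ERBB receptors and is a marker of stem cells in epithelia, and Errfi1 (also named Mig6) is a cytoplasmic protein induced by EGF signaling that binds the kinase domain and blocks it. H3K27ac marks promoters and enhancers in use, and long runs of it often lie at genes that are characteristic of a cell. It shows the state of chromatin and is not a measure of RNA or protein.

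The sequences at 8 summits are printed because the descriptions below turn on them. They are the strongest gene body and upstream peaks of Lrig1, the strongest peak of Egfr, the strongest upstream peaks of Erbb3 and Errfi1 outside the promoter of another gene, and the strongest promoter peaks of Lrig1, Erbb2 and Lrig2. Each window holds the summit base of mm10 and 100 bases either side. Capitals mark matches, on either strand, to the short motifs named further on.
Lrig1 intron 3, chr6:94640148-94640348, plus strand: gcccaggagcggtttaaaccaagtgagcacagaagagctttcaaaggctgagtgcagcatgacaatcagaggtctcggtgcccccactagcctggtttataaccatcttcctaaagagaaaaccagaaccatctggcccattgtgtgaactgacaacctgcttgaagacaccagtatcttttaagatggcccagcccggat
Lrig1 upstream, chr6:94743246-94743446, plus strand: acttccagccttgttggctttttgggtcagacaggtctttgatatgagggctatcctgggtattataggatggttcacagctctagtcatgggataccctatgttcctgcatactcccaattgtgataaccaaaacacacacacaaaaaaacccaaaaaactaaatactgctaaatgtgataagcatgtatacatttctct
Lrig1 promoter window, chr6:94698335-94698535, plus strand: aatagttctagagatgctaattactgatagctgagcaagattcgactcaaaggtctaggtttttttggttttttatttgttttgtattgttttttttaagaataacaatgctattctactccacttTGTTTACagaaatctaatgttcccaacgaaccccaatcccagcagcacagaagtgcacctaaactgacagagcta
Egfr intron 1, chr11:16790536-16790736, plus strand: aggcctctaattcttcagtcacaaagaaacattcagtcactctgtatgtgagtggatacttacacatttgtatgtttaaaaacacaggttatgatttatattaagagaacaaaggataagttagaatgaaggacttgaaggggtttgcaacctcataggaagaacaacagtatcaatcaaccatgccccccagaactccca
Erbb2 promoter window, chr11:98412110-98412310, plus strand: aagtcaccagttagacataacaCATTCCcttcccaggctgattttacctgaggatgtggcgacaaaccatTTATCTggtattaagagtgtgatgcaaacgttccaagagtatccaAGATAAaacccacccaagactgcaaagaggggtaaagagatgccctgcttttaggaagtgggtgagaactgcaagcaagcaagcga
Erbb3 upstream, chr10:128593981-128594181, plus strand: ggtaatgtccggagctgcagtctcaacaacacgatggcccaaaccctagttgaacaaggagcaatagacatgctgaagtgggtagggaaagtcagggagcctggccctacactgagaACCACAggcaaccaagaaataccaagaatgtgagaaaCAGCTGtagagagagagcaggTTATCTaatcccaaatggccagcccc
Errfi1 upstream, chr4:150838108-150838308, plus strand: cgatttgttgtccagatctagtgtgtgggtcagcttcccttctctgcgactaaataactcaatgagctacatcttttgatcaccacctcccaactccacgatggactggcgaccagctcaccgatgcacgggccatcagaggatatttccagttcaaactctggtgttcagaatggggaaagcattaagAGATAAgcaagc
Lrig2 promoter window, chr3:104510529-104510729, plus strand: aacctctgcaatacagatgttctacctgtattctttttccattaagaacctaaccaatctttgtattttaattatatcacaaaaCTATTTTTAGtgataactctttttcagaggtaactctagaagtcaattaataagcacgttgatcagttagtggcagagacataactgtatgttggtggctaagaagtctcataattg
None of these windows overlapped an annotated exon. The windows at Lrig1 intron 3, Lrig1 upstream and Egfr intron 1 held none of the 13 motifs searched. Capitals mark a forkhead motif at the Lrig1 promoter, a TEAD motif followed by a pair of GATA motifs at the Erbb2 promoter, and a MEF2 motif at the Lrig2 promoter. In the Erbb3 upstream window they mark, in this order, a RUNX motif, a MYOD1 E-box and a GATA motif, and in the Errfi1 upstream window a GATA motif.

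The peaks were spread unevenly over the 8 genes. Lrig1 had 148 peaks, Egfr 97, Errfi1 81, Erbb3 30, Erbb2 10 and Lrig2 10, while Erbb4 and Lrig3 had none. At least 1 peak thus lay in the window of 6 of the 8 genes, beside 77.8% of all protein-coding genes, and at least 1 peak over the gene itself in the same 6, beside 49.9%. A promoter peak was present at the same 6 genes, beside 45.6% of all protein-coding genes. The median gene had 7 peaks in its window (quartiles 1 and 16), so Erbb2 and Lrig2 lay between the median and the upper quartile. Lrig1, Egfr and Errfi1 lay above the 99th percentile, which was 65 peaks, and 0.581% of all genes had as many peaks as Errfi1 or more. Since the peak number grows with the length of the window, density was also counted. Per 10 kb of window it was 7.57 peaks for Lrig1, 7.04 for Errfi1, 3.71 for Egfr, 2.46 for Erbb3, 0.80 for Erbb2 and 0.63 for Lrig2, beside 0.56 for the median gene. By density Errfi1 therefore stood above Egfr, and Erbb3 remained well above the median gene.

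**Figure D1:**
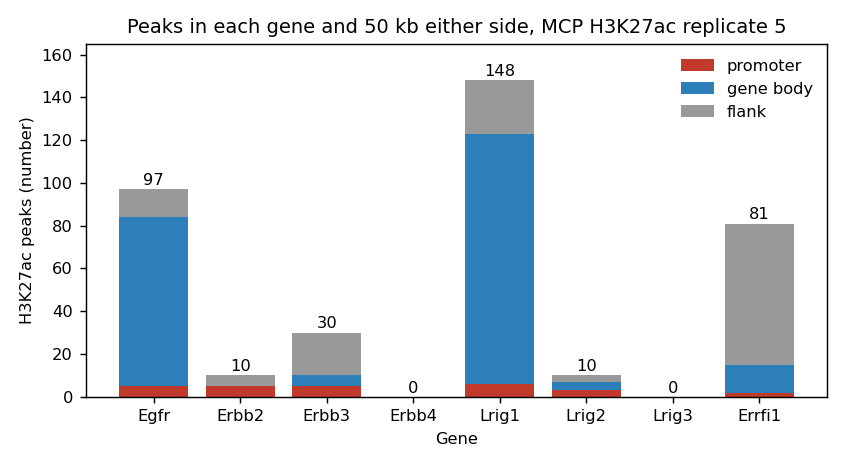
Number of H3K27ac peaks (vertical axis) in each gene and 50 kb either side, split into promoter, gene body and flank, in the library MCP H3K27ac replicate 5. Peaks of Lrig1 (148) and Egfr (97) lay mostly in the gene body, those of Errfi1 (81) mostly in the flanks, and Erbb4 and Lrig3 had none.

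**Figure D2:**
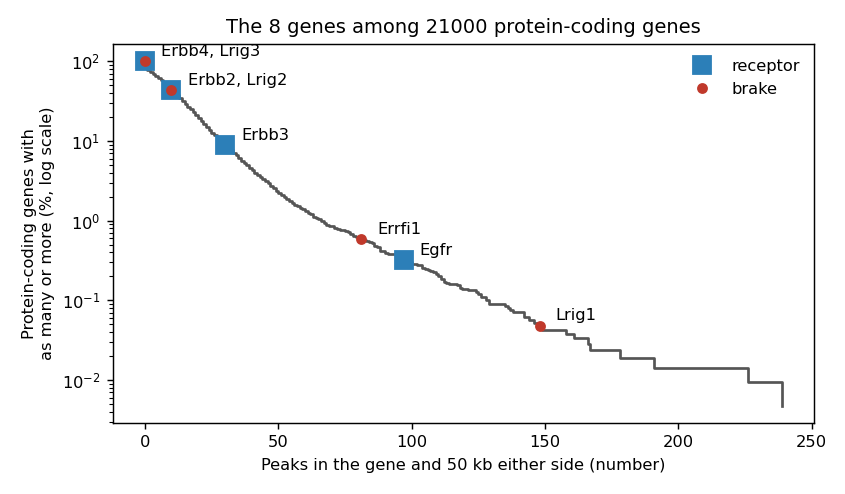
Share of 21000 protein-coding genes (vertical axis, percent on a log scale) with at least the number of peaks on the horizontal axis. Squares mark the receptors and circles the genes grouped as brakes, and Lrig1, at rank 10, lay farther to the right than the other 7 genes.

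The peaks of the 8 genes were of ordinary strength. Fold enrichment is the caller's ratio of the scaled fragment number at a summit to the background there, with 1 added to each. The recovered background was never below 1.055, a value that many peaks shared. Among those peaks the fold followed from the fragment number alone. The median fold was 5.22 over the 376 peaks (quartiles 4.31 and 6.51) and 5.22 over the whole list (quartiles 4.36 and 6.51). A median of 13 fragments lay over the summits of the 376 peaks and of all peaks. They were somewhat wider, with a median of 194 bp beside 163 bp. Among the peaks of Egfr 11.3% were at least 1000 bp wide, and among those of Lrig1 6.76%, beside 4.74% of all peaks. Erbb2, Erbb3 and Lrig2 had no peak of this width. The loci thus differed in how many peaks they held and how close together these lay rather than in the typical fold enrichment of a peak.

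**Figure D3:**
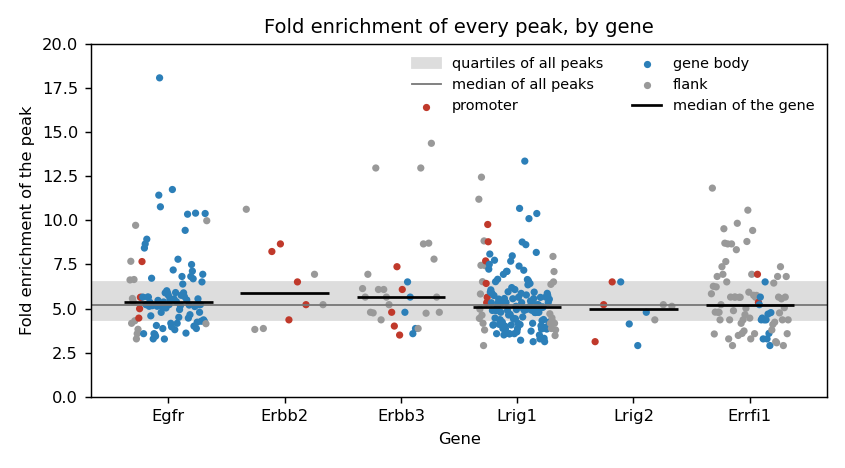
Fold enrichment over the local background (vertical axis) of each peak of the 6 genes with peaks, ordered along each gene from left to right. The black line is the median of the gene and the gray band spans the quartiles of all peaks (4.36 to 6.51); all 6 medians fell inside the band.

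Egfr, the receptor of EGF, spans chr11:16752203-16913907 on the plus strand. It had 5 promoter peaks, 79 gene body peaks and 13 flank peaks, of which 11 lay upstream. The first intron is 106 kb long, makes up 65.8% of the gene and held 71 summits, or 6.68 per 10 kb, and the other introns held 1 to 3 summits each where they held any. The strongest peak of all 8 genes lay in it, at chr11:16790370-16790847, 38.4 kb from the start site. It had a fold enrichment of 18.1 with 48 fragments at the summit (exact Poisson 95% interval 35.4 to 63.6), and it was number 148 of the list by fold. A second peak 37.5 kb from the start, at chr11:16789245-16790285, had a fold of 11.4, and a peak 2763 bp wide at chr11:16808904-16811666, 57.1 kb from the start, had a fold of 11.8. These 3 peaks had higher folds than any at the promoter. The strongest promoter peak had a fold of 7.67 with 17 fragments (9.90 to 27.2) and lay in the first intron, 2.04 kb from the start. Its interval lay below that of the strongest peak but overlapped those of the peaks with folds of 11.8 (25.2 to 49.8) and 11.4 (17.8 to 39.3). The strongest flank peak of Egfr, with a fold of 9.98, lay at the shared promoter region of the noncoding gene Eldr and of Fbxo48, 199 kb from the Egfr start, and 15 of the 79 gene body peaks were nearer to the start of Eldr than to that of Egfr. The strongest flank peak away from other promoters lay 16.6 kb upstream at chr11:16735197-16736757, with a fold of 9.72, 33 fragments and 1 AP-1 motif in its summit window. Peak density on chromosome 11 was 0.794 per 10 kb beside 0.449 over all chromosomes, and Egfr ranked 8th among the 1583 genes of its chromosome. The part of the chromosome's higher density in this was not tested.

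Erbb2, the common partner of the other receptors, spans chr11:98412484-98437716 on the plus strand. It had 5 promoter peaks, no other peak in the gene body and 5 flank peaks. The strongest promoter peak, chr11:98412157-98412299, lay 0.274 kb upstream of the start site with a fold of 8.67 and 19 fragments (11.4 to 29.7). A second one 0.613 kb upstream had a fold of 8.24, and 3 peaks lay in the first intron. In the flanks, 2 peaks lay at the promoter of Mien1 and 1 at that of Pgap3, and 1 more was nearest to Pnmt. The strongest flank peak had a fold of 10.6 and lay in an intron of Stard3, a neighbor that encodes a cholesterol-binding protein, at chr11:98362283-98362765. It crossed the 50 kb limit, and the next peak, 326 bp outside the limit, had a fold of 9.53. The Erbb2 locus thus had acetylation at the start site and at neighboring genes and no peak over the rest of the gene. Egfr and Erbb2 lie on the same chromosome, and Erbb2 ranked 959th among its 1583 genes.

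Erbb3, the neuregulin receptor, spans chr10:128567523-128589635 on the minus strand in a gene-rich stretch. It had 5 promoter peaks, 5 gene body peaks and 20 flank peaks. Of the flank peaks, 12 lay at the promoters of neighboring genes. There were 4 at Esyt1, 3 at Zc3h10, of which 1 was shared with the ribosomal protein gene Rpl41, 1 at Pa2g4 and 4 at the ribosomal protein gene Rps26. The strongest peak of the window, with a fold of 14.4 and 43 fragments (31.1 to 57.9), was at the promoter of Esyt1, 63.1 kb downstream of the Erbb3 start, and one with a fold of 13.0 was at that of Rpl41 and Zc3h10. Another peak, also with a fold of 13.0 and with 29 fragments (19.4 to 41.6), lay 4.45 kb upstream of the Erbb3 start at chr10:128593873-128594805, and no annotated start site was nearer to it than that of Erbb3. The window between 0 and 10 kb upstream of Erbb3 held 10 summits. The strongest promoter peak of Erbb3, 0.23 kb upstream of the start site, had a fold of 7.37 with 16 fragments (9.15 to 26.0), so the intervals of the upstream and the promoter peak overlapped. Within this window 2 peak numbers were absent from the list, so the count of 30 may be too low. Of the 30 peaks, 13 were nearer to the start of Erbb3 than to any other.

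Erbb4, which also binds neuregulins, spans chr1:68032186-69108059 on the minus strand and had no peak in a window of 1176 kb. The summit nearest to its start lay 90.9 kb away, at chr1:69198747-69199003, with a fold of 5.94 and 15 fragments, and this peak was 40.7 kb outside the window. On the other side the first peak lay 109 kb outside it. Of the 42 protein-coding genes with windows at least this long, 8 had no peak. The list holds only peaks past the caller's threshold, and the lowest fragment number over a summit in it was 7, so weaker acetylation at Erbb4 was not detectable here. No peak numbers were absent from the list within the window of Erbb4.

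**Figure D4:**
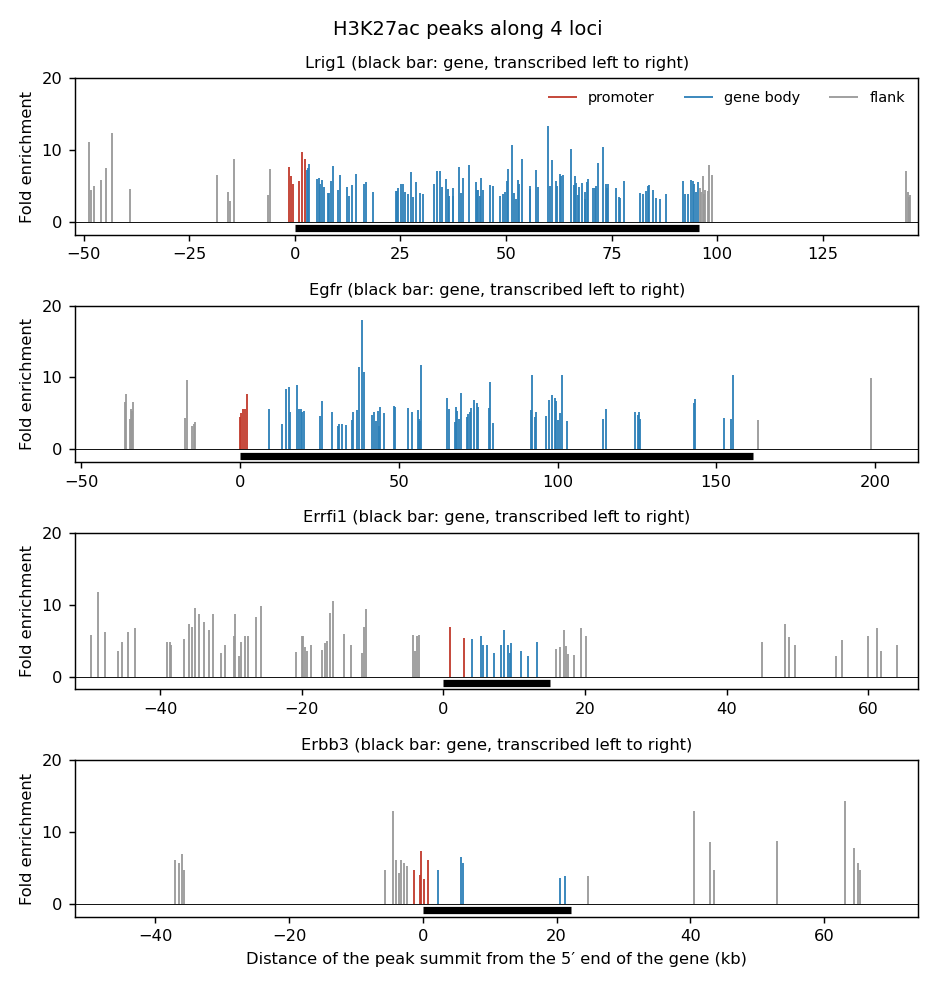
Peaks along the Lrig1, Egfr, Errfi1 and Erbb3 loci, with the distance of each summit from the 5′ end of the gene in kb on the horizontal axis and fold enrichment on the vertical axis. The black bar is the gene, read from left to right, and each line is 1 peak; peaks fill the Lrig1 gene and the first part of Egfr, and lie upstream of Errfi1 and around the start of Erbb3.

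Lrig1 spans chr6:94604529-94700145 on the minus strand. It had 6 promoter peaks, 117 gene body peaks and 25 flank peaks, 13 of them upstream and 12 downstream, and peaks covered 31.4% of its window, or 61.34 kb. The median gap between neighboring peaks was 190 bp, beside 458 bp in the whole list. By summit, 112 peaks lay in introns of Lrig1 and 5 in its coding exons, 16 were intergenic, and 10 lay in introns of Slc25a26, the gene of a mitochondrial carrier that adjoins the 3′ end of Lrig1. The remaining 5 lay in untranslated exons of Lrig1, Slc25a26 or both. The first 3 introns held 90 summits.

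The density within Lrig1 was not confined to its start. Intron 1 held 41 summits in 35.5 kb (11.56 per 10 kb), intron 2 held 13 in 9.01 kb (14.44 per 10 kb) and intron 3 held 36 in 24.6 kb (14.63 per 10 kb). The fullest stretch of 10 kb, with 18 summits, lay 60 to 70 kb from the start site. The strongest peak of the locus, chr6:94639883-94642127, lay in intron 3, 59.9 kb from the start, with a width of 2245 bp, a fold of 13.4 and 34 fragments (23.5 to 47.5). The widest, chr6:94676358-94683174 in intron 1, was 6817 bp wide and 3rd by width in the whole list, with a fold of only 4.11. Upstream, 2 strong peaks stood apart from the gene, one at chr6:94742892-94743928, 43.2 kb from the start with a fold of 12.45 and 37 fragments (26.1 to 51.0), and one 48.8 kb from the start with a fold of 11.2. The latter ended 827 bp inside the limit of the window, and the first peak outside it, 5075 bp farther, had a fold of 4.88. On the other side a peak with a fold of 3.79 crossed the limit, and the next outside had a fold of 4.76. The 6 promoter peaks had folds between 5.34 and 9.77 with a median of 7.07. The strongest, in intron 1 at 1.71 kb from the start, had 32 fragments (21.9 to 45.2). The strongest gene body, upstream and promoter peaks of Lrig1 had overlapping intervals of fragment number.

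By the number of peaks in its window Lrig1 was 10th of 21000 protein-coding genes. The genes just above it were Fndc3b (161 peaks), Rbms3 (158) and Pde4d (149), and those just below were Rptor (146), Bcar3 (144) and Mbnl2 (142). All 6 had longer windows, from 210.4 kb for Bcar3 to 1402 kb for Pde4d, beside 195.6 kb for Lrig1. No gene had more peaks than Lrig1 in a shorter window. Per 10 kb Lrig1 was 3rd, after Prg4 (8.74 peaks per 10 kb) and Hmga2 (7.76) and before D6Ertd527e (7.21) and Errfi1 (7.04). Chromosome 6 had 0.594 peaks per 10 kb, and Lrig1 was 2nd of the 1096 genes on it.

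Lrig2 and Lrig3, the relatives of Lrig1, did not share this density. Lrig2, at chr3:104453983-104511918 on the minus strand, had 3 promoter peaks, 4 gene body peaks and 3 flank peaks. Its strongest peaks, in intron 1 at 1.29 kb and 8.87 kb from the start site, both had a fold of 6.51 with 14 fragments (7.65 to 23.5). None of its 10 peaks was among the strongest 25% of the list. All 10 were nearest to the start of Lrig2. Lrig3, at chr10:125966219-126015359 on the plus strand, had no peak, and the nearest summit lay 180 kb from its start with a fold of 6.51. Start sites rich in CpG carry peaks more often, so each promoter was placed in 1 of 10 strata of the CpG ratio, the observed over the expected number of CpG dinucleotides. Lrig3 had a ratio of 0.98 and lay in the highest stratum, in which 80.5% of genes had a promoter peak, as did Lrig1 (0.96) and Errfi1 (0.99). Erbb4 (0.80) and Lrig2 (0.79) lay in a stratum with a share of 71.0%. Erbb2 (0.73) lay in one with 66.5%, Egfr (0.64) in one with 61.0% and Erbb3 (0.59) in one with 47.4%. Each of these shares was above the 45.6% of all protein-coding genes. The 6 of 8 genes with a promoter peak are therefore better set beside them than beside 45.6%. The absence of a promoter peak at Lrig3 and Erbb4 thus went along with start sites of a kind that mostly carried one.

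Errfi1, the cytoplasmic inhibitor, spans only 15.1 kb at chr4:150853796-150868889 on the plus strand and has 2 start sites. It had 2 promoter peaks, 13 gene body peaks and 66 flank peaks, of which 48 lay upstream and 18 downstream. The fullest stretch of 10 kb, with 15 summits, lay between 20 and 10 kb upstream, and only 1 of the 12 stretches of the window was empty. The strongest peak, with a fold of 11.8 and 39 fragments (27.7 to 53.3), lay 48.7 kb upstream at the promoter of the noncoding gene Gm42356, and the bases of its summit window were marked throughout as repeats. The next, at chr4:150838120-150839241, lay 15.6 kb upstream in an intron of 1700045H11Rik, with a fold of 10.6, 25 fragments (16.2 to 36.9) and no repeat in its window, and one more 25.7 kb upstream had a fold of 9.84. No gene body peak exceeded a fold of 6.51, and the promoter peaks had folds of 6.94 and 5.35. The strongest gene body peak had 14 fragments (7.65 to 23.5) and the strongest promoter peak 15 (8.40 to 24.7). These 2 intervals overlapped that of the peak 15.6 kb upstream and lay below that of the peak at Gm42356. Both promoter peaks also lay in the promoter of 1700045H11Rik, so they cannot be given to one of these genes alone. By gene span alone Errfi1 ranked 1258th, and with the flanks it ranked 119th. Of the 81 peaks 42 were nearest to a start of Errfi1, while 28 were nearest to Gm42356, 7 to Park7, 3 to Tnfrsf9 and 1 to 1700045H11Rik. Errfi1 had 5th place of 21000 genes by density, beside 0.426 peaks per 10 kb of chromosome 4. At the left limit a peak with a fold of 5.84 crossed it and the next, 572 bp outside, had a fold of 4.25.

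Peaks that lay wholly within 1 kb of a start site were left out. The other peaks were joined over the distance that the study's methods give for super-enhancers. The resulting 20840 clusters were ranked by the sum of fold times width. Read coverage was not used, so these ranks are not those of that procedure. The cluster over Lrig1 covered chr6:94601351-94718996, 118 kb with 131 peaks, and was 8th. Those over Egfr (126 kb, 77 peaks) and Errfi1 (126 kb, 103 peaks) were 38th and 41st. The cluster over Errfi1 reached beyond the window to chr4:150748059 and took in 1700045H11Rik and Gm42356. When only peaks less than 5 kb apart were joined, it broke up, and the piece over Errfi1 had 22 peaks in 17.6 kb and was 3103rd. The cluster over Lrig1 kept 127 peaks at that distance, and the largest one over Egfr 38. Erbb3 had a cluster of 9 peaks in 8.16 kb (rank 2824) and Lrig2 one of 6 peaks in 13.8 kb (rank 7041), whereas over Erbb2 there was a lone peak.

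Genes of the pathway around the receptors were described by the same counts. Of all protein-coding genes, 45.6% had a promoter peak. Among the 11 ligands 6 (54.5%) had a promoter peak, and the median was 4 peaks in the window. Hbegf had 25 peaks, Ereg 23 and Epgn, whose window overlaps that of Ereg, 16, whereas the neuregulin genes Nrg2 and Nrg3 had none and Nrg1 had 4. Each of the 4 sheddases and helpers, which free the ligands from the cell surface, had a promoter peak, with 33 peaks at Adam17 and 26 at Rhbdf1. Of the 9 adaptors and effectors, 8 had a promoter peak, with Sos2 (34 peaks) and Grb2 (33) ahead and Grb7 the exception. Grb7 lies near Erbb2, and the strongest peak in its window, with a fold of 8.67, was the promoter peak of Erbb2. All 8 other brakes had a promoter peak. Among these Socs3, an inhibitor of cytokine signaling, had 65 peaks and 6.29 per 10 kb, Ptpn1 39 peaks and Cblb 34, while Cbl, the ubiquitin ligase best known for Egfr, had 5. The promoter peak of Socs5, which acts on Egfr, had a fold of 13.5 with 38 fragments. Medians were 22 peaks for the sheddases, 17 for the adaptors and effectors and 21.5 for the other brakes, beside 20 for the 8 genes and 7 for all genes. The lists were chosen with earlier results of these data known, and no test was made over them.

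**Figure D5:**
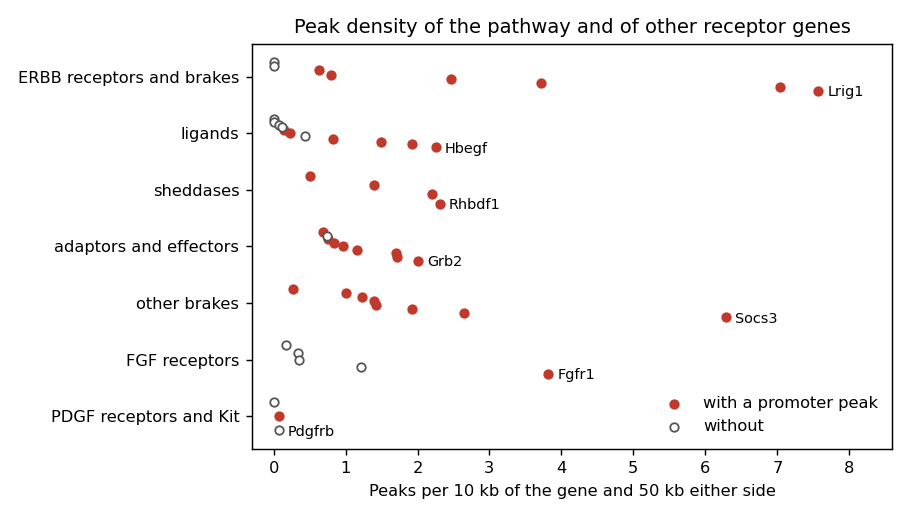
Peaks per 10 kb (horizontal axis) in the window of each gene, by group, with filled points for genes with a promoter peak and open points for genes without. The gene with the highest density of each group is named, and apart from Lrig1 (7.57) and Errfi1 (7.04) only Socs3 (6.29) exceeded 6.

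Other receptor tyrosine kinase genes gave a frame for these values. Among the FGF receptor genes Fgfr1 had 60 peaks (3.82 per 10 kb, close to the 3.71 of Egfr) with 1 promoter peak, Fgfr4 had 14, and 1 of the 5 genes had a promoter peak. Pdgfra and Pdgfrb had 1 peak each and Kit none. In both the ERBB and the FGF receptor family 1 gene held most of the peaks, and Egfr held 97 of the 137 at the ERBB receptors.

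Markers of cell types were read in the same way to check the label of the sample. Of 8 myogenic markers 1 had a promoter peak, Myf6 itself with a fold of 5.97. This is a smaller share than the 45.6% of all protein-coding genes, so promoter peaks at the markers did not bear out the label. The shares of the endothelial (0%), immune (20%) and epithelial (33.3%) markers were also below 45.6%, and that of the fibroblast markers was 50%. Promoters of markers were not placed in strata of the CpG ratio, so these shares were not set beside those of like start sites. The windows of the myogenic markers held a median of 13 peaks (1.23 per 10 kb), beside 7 (0.56) for all protein-coding genes. The median of the endothelial markers was 12 (0.63). Of the myogenic markers, Myf6 had 36 peaks in its window, Myf5 28 and Myod1 11, and Myog and Pax7 had none. No promoter peak was found at the 6 endothelial markers, whose windows held 0 to 15 peaks. Of 5 immune markers 1 (Cd68) had a promoter peak, of 6 epithelial markers 2 (Krt8 and Krt18) and of 4 fibroblast markers 2 (Col3a1 and Pdgfra). Each of these groups except the endothelial one thus had at least 1 promoter peak. Windows outside the myogenic group held as many peaks as those within it, with 39 at Col3a1 (promoter fold 13.4), 31 at Krt18, 30 at Krt8 and 24 at Cd68, while Krt5 had none and Epcam 1. Myf5 and Myf6 both lie on chromosome 10, and Krt8 and Krt18 on chromosome 15. Peaks that the windows of such a pair may share were not counted apart. Which cells gave the peaks at the ERBB genes was not tested. Fewer cells with a mark and less of the mark per cell cannot be told apart in a library of many cells.

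The sequences under the peaks had the composition of the list. In the summit windows the median GC content was 45.8% for the 376 peaks and 45.8% for all peaks, and the mean share of repeats was 14.3% beside 17.5%. AP-1 sites (TGANTCA) were found in 7.45% of the 376 windows (Wilson 95% interval 5.20 to 10.6%) beside 8.05% of all peaks, and MYOD1 E-boxes (CAGCTG) in 8.51% (6.09 to 11.8%) beside 10.0%. The homeodomain dimer of PAX proteins occurred in 2 windows, 1 of Egfr and 1 of Lrig1, which is 0.532% beside 0.436%. For the other motifs, the shares of the 376 windows and of all peaks were 2.66% and 2.66% for the MYC E-box (CACGTG), 1.86% and 2.58% for the PAX paired domain core (GTCACG), 3.99% and 3.27% for forkhead (GTAAACA), 4.26% and 3.20% for ETS (CCGGAA), 10.4% and 11.4% for TEAD (GGAATG). They were 13.3% and 15.9% for RUNX (TGTGGT), 6.12% and 5.40% for KLF (CACACCC), 4.79% and 3.35% for MEF2, 11.4% and 11.1% for AGATAA, the motif of GATA factors, and 1.06% and 0.400% for the glucocorticoid receptor. In these windows the share in all peaks lay inside the interval of the 376 for each of the 13 motifs but the last. This depended on the window. Over whole peaks, forkhead and MEF2 motifs were each found in 7.45% of the 376 (5.20 to 10.6%), beside 4.63% and 4.72% of all peaks, which are narrower in the median. With 50 bases either side of the summit, MEF2 motifs were found in 2.93% (1.64 to 5.16%) beside 1.4%, and RUNX motifs in 5.59% (3.68 to 8.39%) beside 8.50%. The interval of the glucocorticoid receptor motif, with matches in 4 windows, was 0.414 to 2.70%. Among single genes Egfr had forkhead motifs in 9 of 97 windows (9.28%, 4.96 to 16.7%) and Errfi1 had MYOD1 E-boxes in 2 of 81 (2.47%, 0.680 to 8.56%). These were 2 of the 4 values, of 52 combinations of gene and motif over Egfr, Erbb3, Lrig1 and Errfi1, whose interval left out the share of all peaks. Over whole peaks Errfi1 had MYOD1 E-boxes in 7 of 81 (8.64%, 4.25 to 16.8%) beside 13.3% of all peaks, so that interval no longer left out the share of all peaks. Both genes were picked after the values were seen, and peaks of a locus are not independent. Motifs may overlap each other, and a match is a description of the letters.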

How the data were processed

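H3K27ac CUT&RUN was represented by the peak list of MCP H3K27ac replicate 5, matched to the library by the number in its peak names. In the study's methods reads were aligned to mm10, an amplified stretch at Col19a1 and other problematic regions were removed, and peaks were called against IgG. The study's methods name an earlier release of MACS than the MACS2 of the list and of the submitters' processing notes, and give a threshold on the p-value. The sources used here do not tell whether that removal or that threshold was applied to these peaks, whose q reached 0.0471. The deposited list gives for each peak a score, a fold enrichment (a ratio to the local background), and the -log10 p and -log10 q that the authors' caller computed at the summit. Peak numbers run to 122959, and 584 are absent from the list, so regions can lack a peak that was called.

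Spans, start sites and introns were taken from RefSeq transcripts of GRCm38, whose chromosome lengths held every peak. The depth is not in the list. The number of fragments over each summit was recovered from fold and p with 1 scale between H3K27ac and IgG (0.8845); 1 whole number solved both columns for 96.7% of peaks, and with a scale 3% off 1.8% of peaks were solved. Intervals are exact Poisson for fragments and Wilson for shares, and cover counting error only, since fragments carry no molecular identifiers. Fold, width, q and fragments describe and rank peaks within the list; no test was made. Genes with equal peak numbers share the better rank. Scripts were tested on simulated data (Python 3.11.15, pandas 2.3.3, scipy 1.17.1). The genes, gene lists, markers and motifs were chosen with earlier results of these data known, and 1 marker list is not reported here. Named were the 8 genes, the pathway and comparison genes with the most peaks, the neighbors of Lrig1 in rank, the genes whose promoters held flank peaks, and the strongest peaks of each class; other pathway and marker genes were named after their values were seen. Alternatives changed the flank, the promoter width, the peak threshold, the assignment of peaks, the ranking measure, the stitching distance and the motif window.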

Additional observations from a re-analysis of the deposited data

How the results depend on the processing

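No paired analysis was possible because the peak list holds 1 library. The 6 genes with a promoter peak were the same 6 with promoters of 1 kb either side, a -log10 q of at least 5, assignment by summit and the start sites of GENCODE (an alternative added once the data had been seen), and 5 remained in the strongest 25% of the peaks, without Lrig2. The total of 376 peaks fell to 105 in the strongest 25% and to 193 at a -log10 q of at least 5, and it was 278 with flanks of 10 kb and 478 with flanks of 100 kb. The rank of Lrig1, 10th by peak number, was 3rd per 10 kb and 2nd on its own chromosome, and between 9 and 15 by summed fold times width, in the strongest 25% or over the gene span alone. Its cluster of 131 peaks held 35 in the strongest 25%, and its cluster rank of 8 became 5 with stitching at 5 kb and 12 in the strongest 25%, where the cluster over Egfr moved from 38 to 60 and 212. AP-1 sites were found in 2.39% of the 376 windows with 50 bases either side and in 12.8% of whole peaks, beside 3.73% and 11.8% of all peaks. The strongest peak by -log10 q was the strongest by fold in 6 of 6 genes. Among values of single genes, 36 moved and 39 did not. The median of 13 fragments at a summit limits the order of single peaks, and acetylation below the caller's threshold was not detectable.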

Other observations

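Not all peaks in a window need belong to the gene that names it. Of the 376 peaks, 223 had the start of their own gene as the nearest RefSeq start site. For Lrig1 75 peaks were nearest to Mir7041, a microRNA gene at its 3′ end, and 8 of its gene body peaks lay within 2 kb of that start, with folds of 3.84 to 5.87. Of the gene body peaks of Erbb3, 2 lay at Mir6917, a microRNA gene inside Erbb3. Windows of 50 kb thus gave Erbb3 and Errfi1 peaks at the promoters of Esyt1, Rpl41, Rps26, Gm42356 and Park7. Among the 376 peaks 105 (27.9%) were in the strongest 25% of the list.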
